A study of Mus musculus with 8 samples.

Results

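A group of 64 genes had far lower signal in 1-month-old KPAW eye sample I than in sample II or in wild type of that age. The genes were chosen by measured values. After each array was scaled to a common trimmed mean (2% off each end), a probe set with a single gene symbol had to reach a signal of at least 0.1 in both 1-month wild-type arrays and in 1-month KPAW array II. Its signal in 1-month KPAW array I had to be at most 25% of the lowest of those 3 values. Of 20380 single-symbol probe sets for 12393 genes, 8987 probe sets for 6304 genes reached the minimum, and 101 of these probe sets (1.12%) met the 25% limit. They named 84 genes. Families described by their own names were set aside, 20 genes in all, among them the rod phosphodiesterase genes Pde6a, Pde6b and Pde6g, the transducin gene Gnat1, the channel genes Cnga1 and Cngb1, the transcription factor genes Nrl and Crx, and the corneal keratin gene Krt12. The 64 remaining genes were covered by 76 passing probe sets, and 11 of them by more than 1. Each gene is represented below by its passing probe set with the highest mean signal.

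Rods are the photoreceptors of dim light and make up most of the cells of a mouse retina. A rod carries its visual pigment in a stack of membrane discs, the outer segment, which is built on a modified cilium and fed by trafficking from the inner segment, and its terminal signals to bipolar cells through a ribbon synapse. Outer segments form after birth, under the control of a small set of transcription factors that includes the products of Nrl and Crx, so that many rod transcripts are scarce in a newborn mouse eye and abundant in a grown one. Cones, which serve daylight and colour vision, share part of this gene set.

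The RNA came from mouse eyes of 4 groups with 2 arrays each, numbered I and II: KPAW at 1 month, wild type at 1 month, KPAW at 5 days and wild type at 5 days. KPAW is not expanded in the labels, and neither its alleles nor its strain are stated. The wild type is given as C57Bl6 at 5 days, and its strain at 1 month is not stated. All 8 samples were total RNA with an absorbance ratio (A260/A280) of 2.1. The labels do not tell whether arrays I and II of a group come from different animals, so p-values measure only the spread between these arrays. The 5-day KPAW arrays differed in their sex-linked transcripts and so hold RNA of different animals. The 5-day wild-type arrays differed in summed markers of epidermis and eyelid, with a scaled signal of 5.07 on array I and 0.795 on array II. Whether these arrays hold RNA of different animals was not tested. For the 1-month wild-type pair the spread may be technical.

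The arrays differed in more than these genes. Trimmed means before scaling differed by up to 1.78-fold between arrays, and up to 14.9% of probe sets on a single array stood at the lowest listed value. By the sex-linked transcripts Xist and Eif2s3y, all 4 arrays of 1 month and 5-day KPAW I carried the male pattern, and the other 3 arrays of 5 days the female one. Summed markers of epidermis and eyelid had a scaled signal of 26.6 and 11.8 in 1-month KPAW, against 0.955 and 0.988 in 1-month wild type, with 3 of 10 such genes at the minimum. Summed markers of conjunctiva and goblet cells reached 16.2 and 8.85 in 1-month KPAW, against 2.72 and 2.84 in 1-month wild type. Both sums were highest in 1-month KPAW I, the array with low rod signal, and their part in the results was not tested.

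Cell-type markers were counted as a description, since their lists were written with earlier results of these data known. All 10 rod markers at the minimum were at or below the 25% limit in 1-month KPAW I, and 9 of them belong to the families set aside, the exception being Rom1. The summed scaled signal of all 11 rod markers on the array design was 0.899 in 1-month KPAW I and 35.3 in 1-month KPAW II, against 32.2 and 39.3 in 1-month wild type. Among 7 cone markers only Opn1sw, the short-wavelength opsin gene, met the limit, and the sum over all 10 cone markers was 2.40 in 1-month KPAW I and 5.15 in 1-month KPAW II, against 5.21 and 5.23 in 1-month wild type. Of 9 corneal epithelium markers Krt12 and Slurp1, both set aside, met it. None of 11 bipolar, 9 amacrine and horizontal, 10 ganglion cell, 12 Mueller glia and 10 pigment epithelium markers did. The sum over all 14 bipolar markers was 5.49 and 4.89 in 1-month KPAW, against 5.31 and 4.99 in 1-month wild type. In whole-eye RNA fewer rods and less RNA per rod cannot be told apart. In 1-month KPAW I, 6 of the 64 genes were at the lowest listed value, and 9 had at least 1 passing probe set there. A signal above that value does not show that a transcript was present, since Xist read 0.0861 on this array of male pattern. Low and missing therefore cannot be told apart from such signals alone.

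**Figure D1:**
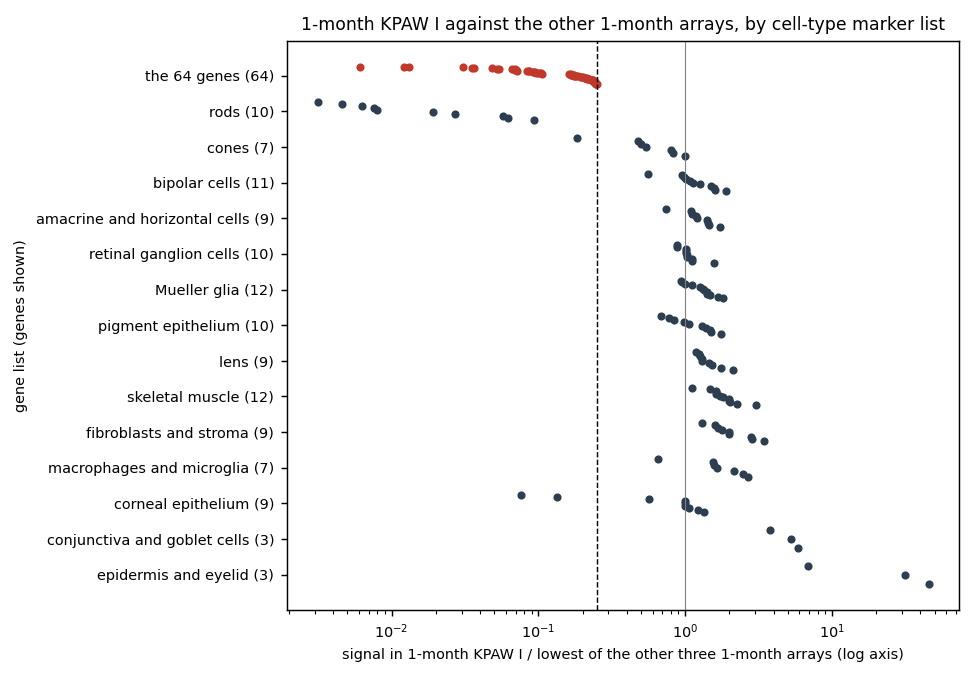
Signal in 1-month KPAW I divided by the lowest of the other 3 arrays of 1 month (log axis), 1 point per gene, for the 64 genes and for the marker genes at the minimum of 14 cell types; the dashed line is the 25% limit that chose the 64 genes and the solid line marks equal signal. All 10 rod markers lie left of the limit, with 1 of 7 cone and 2 of 9 corneal epithelium markers, and no marker of the other 11 cell types does.

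The 64 genes kept up to 23.9% (Dgke) of the wild-type mean in 1-month KPAW I, with a median of 16.3%. The lowest measured share was 0.534% (Reep6), and the shares of the 6 genes at the lowest listed value are upper limits that cannot be ranked against it. These values chose the genes and are given as a description. In 1-month KPAW II the median was 95.6% of the wild-type mean, from 73.0% for Cacnb2 to 154% for Pex5l. KPAW II lay below both wild-type arrays for 27 genes, between them for 26 and above both for 11. KPAW II took part in the choice and no share over all probe sets is given, so nothing is read from these counts. The lowest of the 3 high arrays was 20-fold or more above KPAW I for 7 genes, 10-fold to 20-fold for 16, 5-fold to 10-fold for 15 and 4-fold to 5-fold for 26. Just inside the limit were Nxnl1 (4.01-fold), Dgke (4.02-fold) and Glmn (4.05-fold). Just outside it were Vopp1 (3.99-fold), D16Ertd472e (3.97-fold) and Ptp4a3 (3.94-fold), so that the limit does not mark a gap.

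Of the 4 pairs of arrays, the 1-month KPAW pair alone lay far apart on these genes, as their choice demands. The median size of the log2 difference between arrays I and II over the 64 genes was 2.56 in 1-month KPAW, against 0.137 in 1-month wild type, 0.189 in 5-day KPAW and 0.150 in 5-day wild type. Over all 8987 probe sets at the minimum it was 0.250, 0.180, 0.185 and 0.148 in the same order. No gene of the 64 lay more than 2-fold apart between the arrays of the other 3 groups. The same genes had 27 other probe sets, of which 17, for 12 genes, reached the minimum without meeting the limit. The rest were below the minimum or are not counted. Of the 17, 12 were at least 2-fold lower in KPAW I than in the lowest of the other arrays of 1 month. The minimum was set on the arrays where these genes are high. No share over all probe sets is given, so nothing is read from this count. Among the 17, the exception in direction was a second probe set of Dohh. It had a scaled signal of 0.175 in 1-month KPAW I and 0.122 in 1-month KPAW II, against 0.116 and 0.143 in 1-month wild type.

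**Figure D2:**
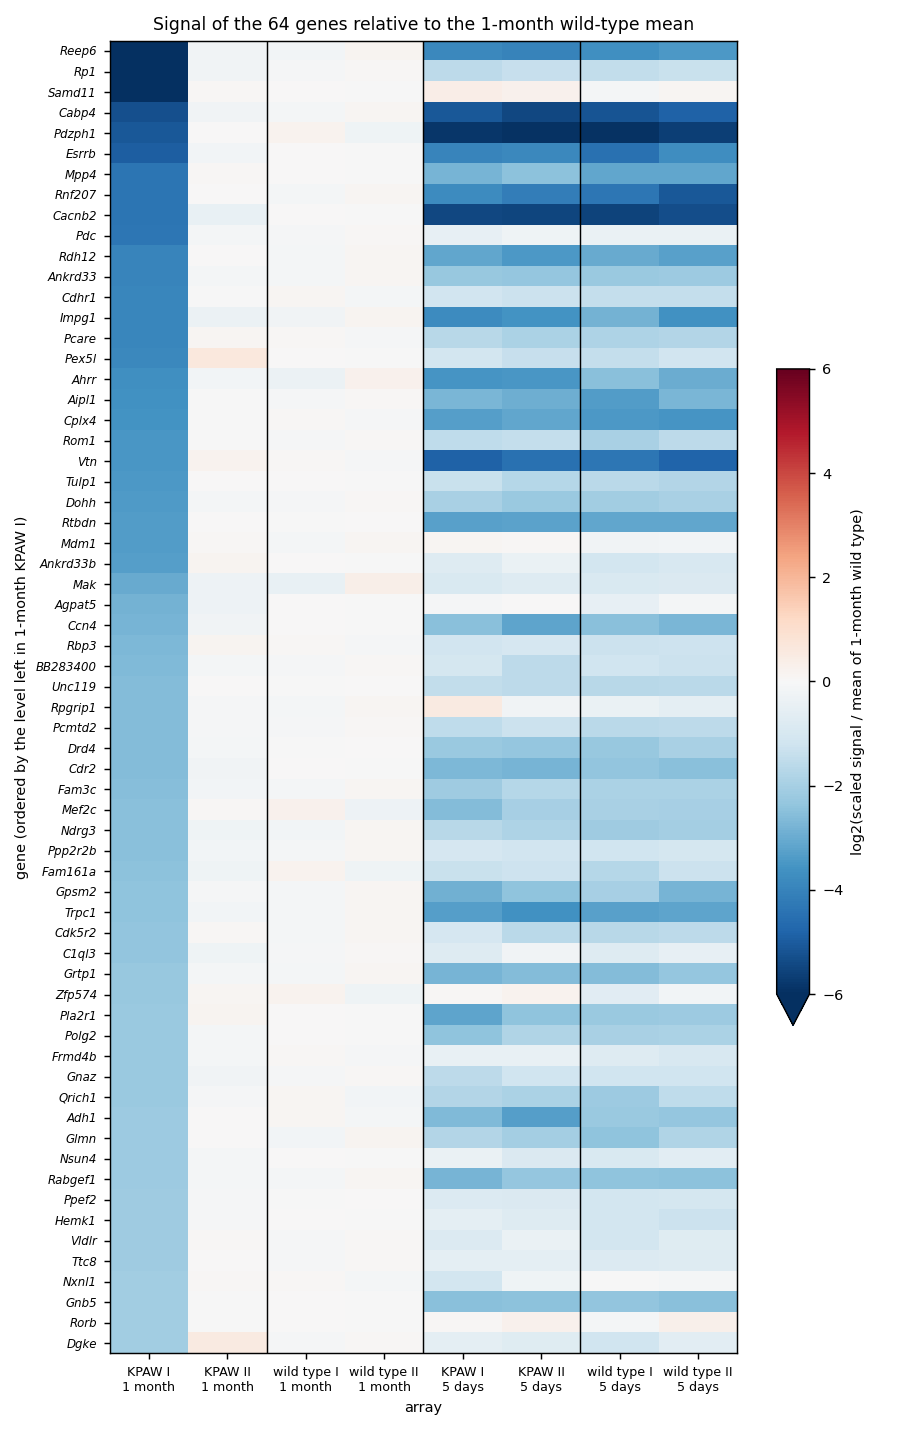
Scaled signal of each of the 64 genes on each array, as log2 of its ratio to the mean of the 1-month wild-type arrays (colour, blue for lower), with genes ordered by the level left in 1-month KPAW I. The KPAW I column of 1 month is blue throughout, by the choice of the genes, and the 5-day columns range from dark blue to white.

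The genes were counted by whole chromosome, without their positions within it and without the share of other genes. They lay on 18 chromosomes, with at most 6 on chromosome 11 and none on X. Their promoters were compared through RefSeq windows of GRCm38.p6 that run from 250 bases before to 50 bases after a gene's start. Of the 64 genes, 51 matched, with 69 windows. Reep6, Rp1, Cabp4, Rnf207, Ankrd33, Pex5l, Cplx4, Ccn4, Pcmtd2, Agpat5, Ppp2r2b, Gnaz and Zfp574 were without a window. Each window was searched on both strands for TAATCC, the core read by CRX and other homeodomain factors, and for TGCTGA, one arm of the palindrome read by NRL and other Maf factors. The letters of these motifs are such that a match of one cannot overlap a match of the other. TAATCC was in 15 of 51 genes (29.4%), against 6.93% of 5096 other genes at the minimum and 8.14% of all 27025 genes with a window. TGCTGA was in 19 (37.3%), against 17.8% and 21.7%. Both were in the same window for 7 genes (13.7%), against 1.10% and 1.59%: Aipl1, Pcare, Ppef2, Rbp3, Rpgrip1, Rtbdn and Samd11. Mpp4 and Unc119 held both as well, in different windows.

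The 250 bases before the start are shown for 4 genes with both motifs in 1 window, whose log2 fold change with age in wild type ran from -0.00 (Samd11) to 2.95 (Aipl1), and for Pdc, which holds neither. Capitals mark TAATCC or TGCTGA and their reverse complements, GGATTA and TCAGCA.
Rbp3, chr14:33953753-33954002 (plus strand): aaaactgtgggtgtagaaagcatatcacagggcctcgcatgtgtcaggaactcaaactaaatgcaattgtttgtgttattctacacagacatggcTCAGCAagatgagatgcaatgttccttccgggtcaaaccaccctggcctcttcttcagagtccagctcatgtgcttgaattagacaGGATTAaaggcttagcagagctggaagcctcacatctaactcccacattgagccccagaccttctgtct
Aipl1, chr11:72037510-72037759 (minus strand): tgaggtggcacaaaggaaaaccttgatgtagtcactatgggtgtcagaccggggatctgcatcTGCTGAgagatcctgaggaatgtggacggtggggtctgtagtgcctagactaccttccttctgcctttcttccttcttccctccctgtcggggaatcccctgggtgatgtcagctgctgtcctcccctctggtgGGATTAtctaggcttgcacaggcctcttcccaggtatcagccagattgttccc
Samd11, chr4:156255343-156255592 (minus strand): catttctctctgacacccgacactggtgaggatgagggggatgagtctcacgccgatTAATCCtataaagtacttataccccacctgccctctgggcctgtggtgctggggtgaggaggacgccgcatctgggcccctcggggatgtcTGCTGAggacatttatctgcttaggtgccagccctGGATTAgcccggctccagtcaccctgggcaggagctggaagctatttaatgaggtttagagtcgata
Rpgrip1, chr14:52110653-52110902 (plus strand): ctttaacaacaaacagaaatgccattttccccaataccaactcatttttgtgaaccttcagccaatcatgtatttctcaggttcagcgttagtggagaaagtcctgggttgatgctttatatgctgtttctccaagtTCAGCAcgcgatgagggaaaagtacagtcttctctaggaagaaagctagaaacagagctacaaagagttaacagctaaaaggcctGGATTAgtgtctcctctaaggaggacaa
Pdc, chr1:150319167-150319416 (plus strand): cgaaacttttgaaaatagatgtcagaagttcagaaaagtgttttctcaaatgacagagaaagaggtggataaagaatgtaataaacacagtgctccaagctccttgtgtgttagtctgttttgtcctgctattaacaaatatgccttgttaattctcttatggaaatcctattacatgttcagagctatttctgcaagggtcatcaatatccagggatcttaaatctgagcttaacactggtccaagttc
Counted to the first base of a match, with the start base as 0, TAATCC was at -69 in Rbp3 and -28 in Rpgrip1, both on the opposite strand. Samd11 had it at -193 and -67, and Aipl1 at -53 and, in the part not printed, at 10. A match is a run of letters and not a shown site. Pdc, without one, kept 4.97% of its wild-type mean in 1-month KPAW I. With both motifs, Samd11 kept at most 1.30% and Rbp3 kept 15.4%. The level left was not compared by motif over the genes with a window.

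Outer segment and disc genes came first by role. Rom1, a disc rim protein, had a scaled signal of 0.209 in 1-month KPAW I and 2.35 in 1-month KPAW II, against 2.24 and 2.51 in 1-month wild type. At 5 days it had 0.822 and 0.872 in KPAW, against 0.618 and 0.798 in wild type. KPAW I was the single low array of 1 month, and it lay below every 5-day array. Rp1, which binds the microtubules of the photoreceptor axoneme and keeps discs in line, was at the lowest listed value in 1-month KPAW I and at 0.860 in 1-month KPAW II, against 0.966 and 1.05 in 1-month wild type. The lowest of those 3 was thus at least 82.3-fold above KPAW I. Its 5-day signals of 0.340 and 0.393 in KPAW, against 0.368 and 0.400 in wild type, overlapped. Cdhr1, a cadherin at the base of the outer segment, had 0.160 in 1-month KPAW I and 2.37 in 1-month KPAW II, against 2.57 and 2.23 in 1-month wild type. Impg1, a proteoglycan of the matrix around photoreceptors, was at the lowest listed value in 1-month KPAW I and at 0.124 in 1-month KPAW II, against 0.137 and 0.177 in 1-month wild type. Of 10 genes at the minimum in a list of outer segment genes, 6 met the limit, these 4 and the channel genes Cnga1 and Cngb1.

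Genes for shutting off and regulating the light response made a small group outside the families set aside. Phosducin, the product of Pdc, binds the beta and gamma subunits of transducin. Pdc had a scaled signal of 0.114 in 1-month KPAW I and 2.12 in 1-month KPAW II, against 2.16 and 2.42 in 1-month wild type. At 5 days it had 1.62 and 1.90 in KPAW, against 1.72 and 1.75 in wild type, so the groups of 5 days overlapped and 1-month KPAW I was far below all of them. Gnb5, the G protein beta subunit that partners RGS9 in ending the response, had 0.417 in 1-month KPAW I and 1.78 in 1-month KPAW II, against 1.80 and 1.78 in 1-month wild type. Its 5-day signals were 0.309 and 0.327 in KPAW, against 0.350 and 0.313 in wild type, all below 1-month KPAW I. Ppef2, a phosphatase with calcium-binding hands, had 0.0760 in 1-month KPAW I and 0.320 in 1-month KPAW II, against 0.335 and 0.339 in 1-month wild type. In the list for visual pigment, deactivation and calcium feedback 8 of 12 genes at the minimum met the limit, 5 of them among those set aside.

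Chaperones and trafficking genes included the gene with the lowest share left among those measured above the lowest listed value. Reep6, which shapes the endoplasmic reticulum and serves protein traffic in rods, had a scaled signal of 0.0145 in 1-month KPAW I and 2.38 in 1-month KPAW II, against 2.40 and 3.05 in 1-month wild type. At 5 days it had 0.185 and 0.171 in KPAW, against 0.211 and 0.246 in wild type. The 1-month KPAW I array held less than any 5-day array, and the groups of 5 days did not overlap. Aipl1, the chaperone that folds rod phosphodiesterase, had 0.182 in 1-month KPAW I and 2.22 in 1-month KPAW II, against 2.11 and 2.36 in 1-month wild type. Unc119, which carries the lipid-bearing alpha subunit of transducin, had 0.651 in 1-month KPAW I and 4.03 in 1-month KPAW II, against 3.89 and 4.11 in 1-month wild type. Tulp1, needed for moving rhodopsin to the outer segment, had 0.213 in 1-month KPAW I and 2.36 in 1-month KPAW II, against 2.34 and 2.25 in 1-month wild type. In each of these 3 genes KPAW II was within the wild-type pair or slightly above it, and KPAW I alone stood apart. In this list 7 of 14 genes at the minimum met the limit, among them Rabgef1, an exchange factor for the endosomal GTPase Rab5.

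Cilium genes overlapped with trafficking. Rpgrip1, which anchors RPGR in the connecting cilium, had a scaled signal of 0.112 in 1-month KPAW I and 0.653 in 1-month KPAW II, against 0.628 and 0.738 in 1-month wild type. At 5 days it had 0.977 and 0.588 in KPAW, against 0.525 and 0.461 in wild type, so that both 5-day KPAW arrays were above both 5-day wild-type arrays. Mak, a kinase that limits the length of the cilium, had 0.0714 in 1-month KPAW I and 0.473 in 1-month KPAW II, against 0.430 and 0.735 in 1-month wild type. Ttc8, a subunit of the BBSome that sorts ciliary membrane proteins, had 0.116 in 1-month KPAW I and 0.505 in 1-month KPAW II, against 0.482 and 0.519 in 1-month wild type. Of 24 cilium genes at the minimum 5 met the limit, so most genes of this widely expressed list did not.

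Retinoid genes were few. Rbp3 encodes the retinoid carrier between photoreceptors and the pigment epithelium. It had a scaled signal of 0.688 in 1-month KPAW I and 5.01 in 1-month KPAW II, against 4.70 and 4.26 in 1-month wild type. Rdh12, a retinol dehydrogenase of photoreceptor inner segments, had 0.0883 in 1-month KPAW I and 1.41 in 1-month KPAW II, against 1.28 and 1.497 in 1-month wild type. Rdh12 was low at 5 days too, with 0.160 and 0.128 in KPAW, against 0.171 and 0.145 in wild type, and Rbp3 had 2.04 and 2.25 in 5-day KPAW, against 1.81 and 1.92 in 5-day wild type. Of 7 retinoid genes at the minimum 3 met the limit, with Abca4 the one set aside.

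The synapse genes come from a list written for the photoreceptor terminal, and no other synapse list was compared. Cabp4 encodes a calcium-binding regulator of the terminal's calcium channel. It was at the lowest listed value in 1-month KPAW I and at 0.341 in 1-month KPAW II, against 0.363 and 0.433 in 1-month wild type. It was also at or near that value in all 4 arrays of 5 days, so 1-month KPAW I resembled them. Cacnb2, a subunit of such channels, had 0.0249 in 1-month KPAW I and 0.375 in 1-month KPAW II, against 0.514 and 0.513 in 1-month wild type. KPAW II was below both wild-type arrays here, the lowest ratio of the 64 genes. Mpp4, a membrane scaffold of the terminal, had 0.0789 in 1-month KPAW I and 1.74 in 1-month KPAW II, against 1.71 and 1.64 in 1-month wild type. Cplx4, a complexin of ribbon synapses, had 0.0716 in 1-month KPAW I and 0.857 in 1-month KPAW II, against 0.896 and 0.833 in 1-month wild type. Of 24 synapse genes at the minimum 6 met the limit, with Cdhr1 and Unc119 counted here as well.

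Some transcription and chromatin genes were abundant at 5 days and others scarce. Samd11, a Polycomb-associated protein of rods, was at the lowest listed value in 1-month KPAW I and at 0.847 in 1-month KPAW II, against 0.812 and 0.801 in 1-month wild type. At 5 days it had 1.08 and 0.964 in KPAW, against 0.740 and 0.880 in wild type. Every array but 1-month KPAW I thus held Samd11 between 0.740 and 1.08, and the lowest of the other 3 arrays of 1 month was at least 76.6-fold above it. Rorb, a nuclear receptor gene of photoreceptor fate, had 0.0643 in 1-month KPAW I and 0.271 in 1-month KPAW II, against 0.278 and 0.267 in 1-month wild type. Its 5-day levels were 0.287 and 0.322 in KPAW, against 0.253 and 0.332 in wild type, and overlapped. Esrrb, an orphan nuclear receptor of rods, had 0.0247 in 1-month KPAW I and 0.682 in 1-month KPAW II, against 0.789 and 0.749 in 1-month wild type. It was low in every 5-day array, with 0.0499 and 0.0527 in KPAW, against 0.0349 and 0.0590 in wild type. Ankrd33, a cofactor in photoreceptors, and Mef2c, a MADS-box factor shared with muscle and neurons, completed the 5 genes left of 7 that met the limit among 22 at the minimum. Muscle genes of the eye did not follow Mef2c: none of 18 at the minimum met the limit.

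The remaining lists were nearly empty. Pla2r1, a phospholipase A2 receptor, was the 1 gene of 24 at the minimum in a lipid list, and Nxnl1, whose product from rods sustains cones, the 1 of 35 in an energy list. No gene met the limit among 20 of lens fibres and 7 of glands. A list of inherited rod and macular disease genes held 15 of the 64 genes, and 21 of its 43 genes at the minimum met the limit. These lists were written with photoreceptor results of these data known, so the counts describe the genes and are not independent evidence of their kind.

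Outside every list were 35 of the 64 genes. Vtn, the adhesive glycoprotein vitronectin, had a scaled signal of 0.178 in 1-month KPAW I and 2.33 in 1-month KPAW II, against 2.10 and 1.95 in 1-month wild type. Pdzph1, named for its PDZ and pleckstrin domains, had 0.0196 in 1-month KPAW I and 0.668 in 1-month KPAW II, against 0.759 and 0.560 in 1-month wild type. Rnf207, a RING finger protein studied in the heart, had 0.0205 in 1-month KPAW I and 0.431 in 1-month KPAW II, against 0.390 and 0.467 in 1-month wild type. In all 3 genes the KPAW II value fell within the wild-type pair or above it. Pcare, an actin regulator of the photoreceptor cilium, had 0.0552 in 1-month KPAW I and 0.889 in 1-month KPAW II, against 0.856 and 0.798 in 1-month wild type. Rtbdn, the riboflavin-binding retbindin, had 0.186 in 1-month KPAW I and 1.97 in 1-month KPAW II, against 1.92 in both arrays of 1-month wild type. Drd4, a dopamine receptor of photoreceptors, had 0.0569 in 1-month KPAW I and 0.313 in 1-month KPAW II, against 0.341 and 0.343 in 1-month wild type, and was chosen for mention after its values were seen. Genes of general cell functions stood beside these, such as Dohh (hydroxylation of a translation factor), Polg2 (copying of mitochondrial DNA) and Nsun4 (methylation of mitochondrial ribosomal RNA), the last pair also named after their values were seen.

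**Figure D3:**
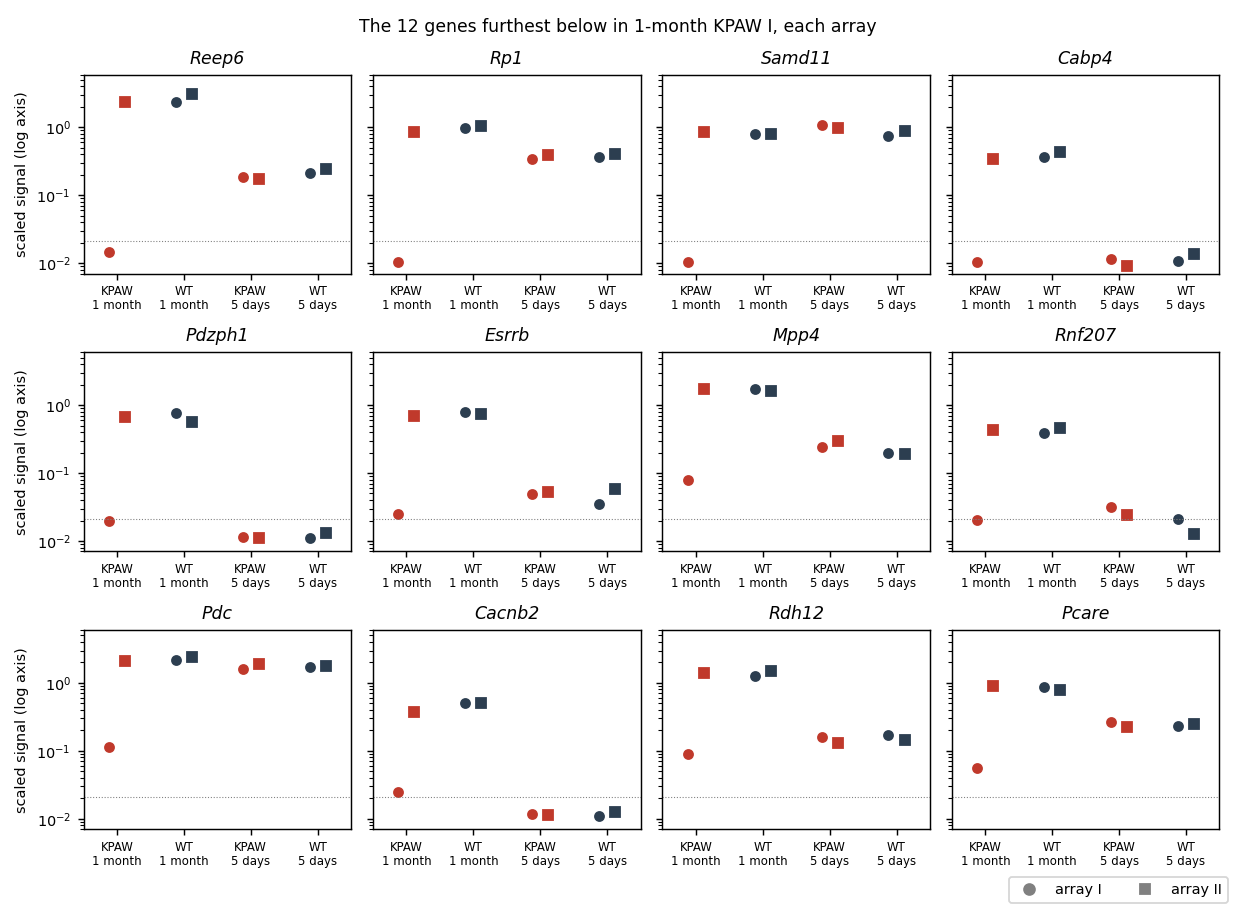
Scaled signal (log axis) on each array for the 12 genes with the largest ratio between the lowest of the 3 high arrays of 1 month and 1-month KPAW I, with circles for array I, squares for array II and red for KPAW; the dotted line is the pseudocount of 0.0211. Samd11 and Pdc were high on all 4 arrays of 5 days, whereas Cabp4, Pdzph1 and Cacnb2 were near the lowest listed value there.

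At 5 days, before outer segments form, KPAW and wild type were not called different for any of the 64 genes. No 5-day array chose the genes, but the spread in the model comes from all 8 arrays, with those that did, which widens the errors of these genes. In limma's test over 15838 probe sets, with a Benjamini-Hochberg adjusted p under 0.05 as the threshold, 0 of 64 genes were higher and 0 lower, against 0% of all probe sets in either direction. With the 5-day groups alone in the fit the count was 0 too, and 4 of the 64 genes had an unadjusted p under 0.05, against 3.78% of all probe sets. In the model of all 8 arrays 0 of 64 did, which follows in part from the choice of the genes. The median log2 fold change was 0.03 over the 64 genes and 0.01 over all probe sets, and 36 of the 64 were positive and 28 negative. Both KPAW arrays were above both wild-type arrays for 19 genes (16.8% of all probe sets tested, 16.1% of those at the minimum). Both were below for 11 genes (16.6% and 18.0%). As a share of the 5-day wild-type mean the 5-day KPAW mean had a median of 103%, from 57.3% for Ahrr to 165% for Rnf207.

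The genes with the largest moderated statistics at 5 days, 5 in each direction, were not called either. Adh1, an alcohol dehydrogenase that can oxidize retinol, had a scaled signal of 0.291 and 0.186 in 5-day KPAW, against 0.390 and 0.364 in 5-day wild type. The groups did not overlap, and the log2 fold change was -0.65 ± 0.58 (SE, adjusted p of 1.00 in limma's test). Nxnl1 had 0.0650 and 0.115 in 5-day KPAW, against 0.135 and 0.128 in 5-day wild type, with a log2 fold change of -0.49 ± 0.47. Pla2r1, Ahrr and Cdr2 followed on the lower side. On the higher side Rpgrip1 had a log2 fold change of 0.60 ± 0.63, Zfp574 of 0.48 ± 0.48 and Hemk1 of 0.40 ± 0.41, ahead of Frmd4b and Ndrg3. This order depends on the widened errors. By size alone Mpp4 (0.43 ± 1.05), Ankrd33b (0.40 ± 0.75) and Rnf207 (0.37 ± 0.88) on the higher side and Reep6 (-0.32 ± 1.53) on the lower one stand among or close to them, named after their values were seen.

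**Figure D4:**
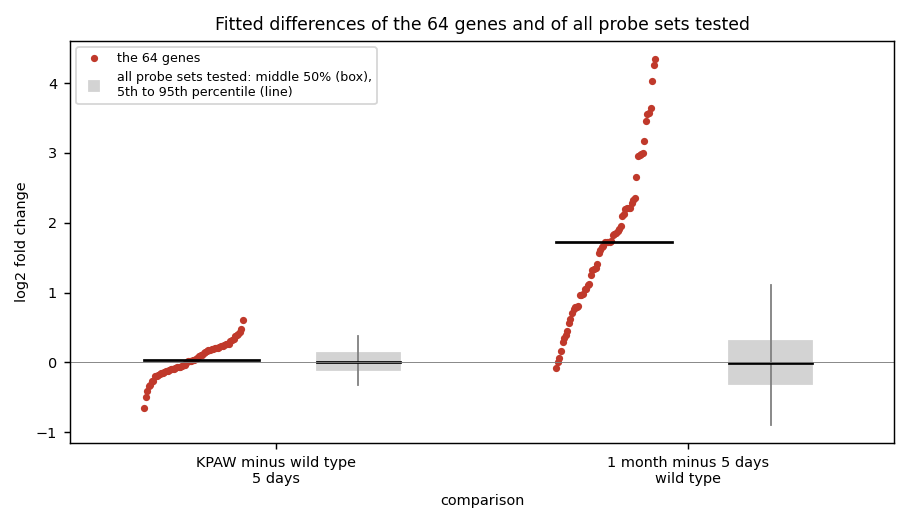
Fitted log2 fold changes of the 64 genes (red points, black bar at their median) for KPAW minus wild type at 5 days and for 1 month minus 5 days in wild type, beside the middle 50% (grey box), median (black bar) and 5th to 95th percentiles (line) of the 15838 probe sets tested. At 5 days the 64 genes centre on 0.03, and for age in wild type on 1.72, against -0.00 for all probe sets.

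Most of the 64 genes were more abundant in the grown wild-type eye than in the young one. The 1-month wild-type arrays took part in the choice, since they had to reach the minimum signal and to be at least 4-fold above 1-month KPAW I. The counts are therefore a description. The share among probe sets at the minimum is given as well, and it matches the first condition but not the second. Both arrays of 1 month were above both of 5 days for 60 of 64 genes (32.5% of all probe sets tested, 36.9% of those at the minimum), and below for 0 (33.0%). In limma's test 20 of 64 genes rose with age and 0 fell, against 8.73% and 9.33% of all probe sets and 11.9% higher among those at the minimum. The median log2 fold change was 1.72, against -0.00 for all probe sets and 0.02 for those at the minimum. In the fit with the wild-type groups alone, which leaves out the KPAW arrays, 55 of 64 rose (12.3% of all probe sets, 17.0% of those at the minimum). Without any single wild-type array, of either age, the count was 0, and without 1-month KPAW I or II it was 55 or 54 (11.7% of all probe sets without KPAW I). With the values as deposited it was 54 (20.4%).

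Age and the sex pattern cannot be told apart in wild type, where both arrays of 1 month carried the male pattern and both of 5 days the female one. A pair of KPAW arrays with the male pattern, 1-month KPAW II and 5-day KPAW I, gave values for age within it. There 46 of 64 genes were at least 2-fold higher at 1 month, against 7.73% of probe sets at the minimum, and none was 2-fold lower. The median ratio was 3.24. This pair has 1 array a side and includes an array that chose the genes.

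The genes with the largest called change with age were of several roles. The 1-month wild-type arrays took part in choosing them, so the p-values here describe these genes and are no independent test of age. Pdzph1 had a scaled signal of 0.759 and 0.560 in 1-month wild type, against 0.0109 and 0.0132 in 5-day wild type. The log2 fold change was 4.35 ± 1.04 (SE), with an adjusted p of 0.0254 in limma's test. Vtn had 2.10 and 1.95 in 1-month wild type, against 0.101 and 0.0722 in 5-day wild type, which is 4.26 ± 0.91 on the log2 scale (adjusted p of 0.0173). Cacnb2 had 0.514 and 0.513 in 1-month wild type and was at the lowest listed value on both arrays of 5-day wild type, which is 4.03 ± 0.79 on the log2 scale (adjusted p of 0.0132). For each the groups lay far apart, and 5-day KPAW was as low as 5-day wild type. Cabp4 (3.65 ± 0.90), Rnf207 (3.57 ± 0.88) and Esrrb (3.56 ± 1.00) came next on the same scale, with adjusted p of 0.0289, 0.0290 and 0.0449. At levels this low the log2 fold change depends on the pseudocount of 0.0211 added before the logarithm and understates the ratio. The other genes called were Cplx4, Rtbdn, Trpc1, Gnb5, Cdr2, Rabgef1, Adh1, Ccn4, Impg1, Gpsm2, Grtp1, Ndrg3, Pla2r1 and Glmn.

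A smaller set was already present at 5 days. The 5-day wild-type mean was at most 10% of the 1-month wild-type mean for 8 genes, 10% to 25% for 20, 25% to 50% for 21 and above 50% for 15, with a median of 28.5%. The lowest share was 1.83%, for Pdzph1, and the highest 108%, for Rorb. Besides Rorb and Samd11, whose log2 fold changes with age were -0.09 ± 0.47 and -0.00 ± 1.21, the genes nearest to no change were Nxnl1 (0.06 ± 0.47), Mdm1 (0.16 ± 0.65), Agpat5 (0.29 ± 0.54), Zfp574 (0.35 ± 0.48), Pdc (0.40 ± 1.01) and Rpgrip1 (0.45 ± 0.63). With Mak (0.79 ± 0.65) these are the 9 genes that did not pass in the fit with the wild-type groups alone, the reason for naming Agpat5 after its values were seen. A p that misses the threshold does not show that they were equal at both ages.

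By role the median share present at 5 days, of the 1-month wild-type mean, was 10.2% for the 6 synapse genes and 33.3% for the 4 outer segment genes. It was 54.2% for the 5 cilium genes and 28.4% for the 35 genes in no list. Over whole lists, 11 of 24 synapse genes rose with age in wild type and 1 fell, against 8.73% higher and 9.33% lower over all probe sets tested. Of 51 disease genes 13 rose and 1 fell, and of 10 outer segment genes 3 rose and 0 fell. Of 29 cilium genes 0 rose and 1 fell, and of 23 transcription genes 4 rose and 3 fell. Trafficking genes had 1 of 18 higher and 1 lower, retinoid genes 2 of 10 higher and 1 lower, and the visual pigment list 3 of 14 higher and 0 lower. The trafficking list is near the share of all probe sets, and nothing particular to a list is read from these counts. At 5 days no gene of these lists was called between KPAW and wild type.

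The level left in 1-month KPAW I was set beside the 5-day levels as a description. It was below all 4 arrays of 5 days for 47 genes, within their range for 9 and above all of them for 8. The choice fixes part of this count. A gene whose 5-day wild-type mean was above 25% of its 1-month mean had to lie below that 5-day mean. This held for the 21 and 15 genes given before. No share over all probe sets is given, so nothing is read from the counts. Pdc, Samd11, Rp1 and Rom1 were among those below, and Gnb5, Cacnb2, Pdzph1 and Vtn among those above. Over the 64 genes, the log of the ratio that chose them and the log of the rise with age in wild type had a Spearman correlation of 0.44 and a Pearson correlation of 0.41. Both measures contain the 1-month wild-type arrays, so this is a description.

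**Figure D5:**
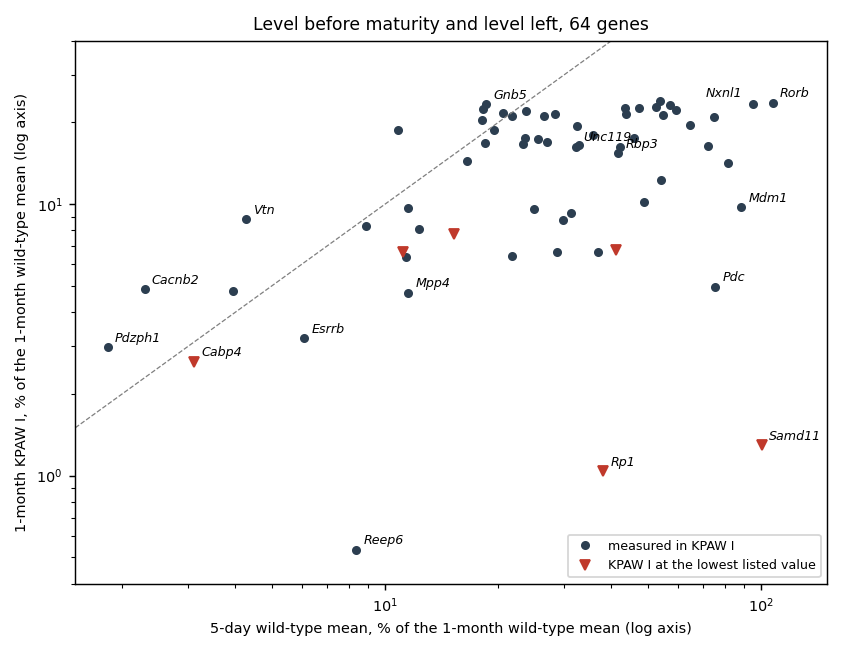
Level in 1-month KPAW I against the 5-day wild-type mean, both as a percentage of the 1-month wild-type mean (log axes), 1 point per gene; triangles are the 6 genes at the lowest listed value in 1-month KPAW I and the dashed line marks equal levels. Most points lie below the line, Samd11, Rorb and Nxnl1 lie far to the right near 100% and Pdzph1, Cacnb2 and Vtn lie above it.

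The comparisons that follow contain the 1-month KPAW values that chose the genes, and nothing is read from them. Leaving out 1-month KPAW II leaves only the array chosen to be low. The counts without KPAW II therefore follow in large part from the choice. For KPAW against wild type at 1 month all 64 log2 fold changes were negative, with a median of -1.24. There 0 of 64 passed the threshold, against 0.0126% of all probe sets lower. With 1-month KPAW I left out the median was -0.06 and 0 passed. With KPAW II left out all 64 passed, against 2.64% of all probe sets. The change of the KPAW effect between the ages was called for 0 of the 64 genes, against 0% of all probe sets, with a lowest adjusted p of 0.809. Within KPAW, 0 of 64 genes passed for 1 month against 5 days, against 6.76% higher and 7.51% lower over all probe sets. Without 1-month KPAW I the count was 48 higher (5.78% of all probe sets). Without 1-month KPAW II it was 35 lower (7.13%) and 1 higher (6.59%), and the change of the KPAW effect was then called lower for 58 genes (1.57%).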

How the data were processed

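Expression was measured on 8 arrays of mouse eye RNA, 2 in each of 4 groups named in the labels. Per the labels, RNA was extracted with Trizol followed by RNeasy clean-up. The authors deposited 1 signal intensity per probe set and array, with a lowest listed value of 0.01 and a median of 1 over the control probe sets. The software that made these intensities was not given in the sources used here. The 64 control probe sets out of 22690 were not used. Of the remaining 22626, 20380 had 1 gene symbol in the platform annotation, 691 several and 1555 none, and of 764 unnamed or shared probe sets at the minimum 13 met the 25% limit and were not used. Every sample column was used.

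Arrays were brought to a common trimmed mean, the median over all 8. Tests used log2(scaled signal + 0.0211), the pseudocount being the 20th percentile, and the 15838 probe sets with a mean above the 30th percentile, which kept all 64 genes. One limma model (limma 3.58.1, R 4.3.3) with a mean for each group, a variance trend and 4 residual degrees of freedom was fitted to all 8 arrays, with Benjamini-Hochberg adjustment over all probe sets kept. It was also run on simulated data with independent noise and no array set apart. That setting is unlike these genes, so the run does not speak for them and its outcome is not given. Python 3.11.15 with pandas 2.3.3 and matplotlib 3.10.9 served for tables and figures. The number of arrays limits the precision.

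The 64 genes and the gene lists were chosen with earlier results of these data known. Genes were named by a rule: the 12 largest ratios, the 10 largest outside every list, the 3 on either side of the limit, up to 6 per list, the 5 largest statistics in each direction at 5 days, the 6 largest called changes with age, and 8 photoreceptor genes. Alternatives were other limits and minimums of the rule, scalings, pseudocounts, filters, no variance trend, the groups of a comparison alone, a replicate block, each array left out, and a 150-base promoter window.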

Additional observations from a re-analysis of the deposited data

Results flagged for a closer look

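For 6 genes KPAW was below wild type on every array at 1 month and above it on every array at 5 days. Each was read by its representing probe set alone. On another probe set of Ndrg3, and on all others of Frmd4b, the groups of 5 days overlapped. Another probe set of Pcmtd2 kept both directions. The 6 genes are 9.38% of the 64, against 3.88% of the probe sets at the minimum. The choice puts 1-month KPAW I below both wild-type arrays for all of the 64, but not for the probe sets at the minimum. The shares are therefore unlike, and nothing is read from their difference. The change in the KPAW effect between the ages, 1 month minus 5 days, was -1.59 on the log2 scale for Ndrg3, -1.56 for Agpat5, -1.49 for Pcmtd2, -1.22 for Hemk1, -1.20 for Frmd4b and -1.19 for Ppef2. In limma's test of that change none of the 6 passed, the lowest adjusted p over the 64 genes being 0.809. At 5 days the differences were small: Pcmtd2 had a scaled signal of 0.637 and 0.747 in 5-day KPAW, against 0.584 and 0.605 in 5-day wild type, and Hemk1 had 0.0875 and 0.0777 in 5-day KPAW, against 0.0610 and 0.0544 in 5-day wild type. Of the 4 arrays of 5 days, KPAW I carried the male pattern of sex-linked transcripts and the other 3 the female one, and the part of this in the values was not tested.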

How the results depend on the processing

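The choice of the genes moved with its limits. There were 207 genes at a limit of 50%, 30 at 12.5%, and 53 to 92 under the other settings tried, which were other minimums and scalings, 1 probe set a gene and wild type alone as the high side. At 5 days 0 genes were called under every alternative. With age in wild type 20 genes were called higher, 13 without a filter (5.49% of all probe sets), 54 with values as deposited (20.4%), 55 with the wild-type groups alone (12.3%), and 0 to 55 with 1 array left out. Values as deposited shift the median of all probe sets by age in wild type to 0.44, where 3238 rose and 327 fell, against 1382 and 1478 after scaling, and 1184 and 1982 after median scaling. For KPAW against wild type at 1 month 6 genes were lower with values as deposited (0.284%) and 0 to 64 with 1 array left out. For age in KPAW 10 genes were higher and 2 lower with values as deposited (5.51% and 2.97%), and 0 to 48 higher and 0 to 35 lower with 1 array left out. The change of the KPAW effect was called lower for 0 to 58 genes with 1 array left out, 58 being without 1-month KPAW II. The cause of these moves was not tested, beyond the KPAW arrays that the choice itself used. The median difference between arrays was 0.378 in 1-month wild type and 0.369 in 5-day KPAW with values as deposited. In the 150 bases around the start TAATCC was in 9 genes (17.6%, against 2.86% of other genes at the minimum), TGCTGA in 8 (15.7%, against 8.99%) and both in 0 (against 0.235%), a shorter window by construction.

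The replicate numbers were not treated as pairing the samples: deviations of same-numbered arrays correlated from -0.02 to 0.31 over the 6 pairs of groups, and only 3 of the 6 were above 0.1. With the numbers as a replicate block 26 genes rose with age in wild type (9.65% of all probe sets), and 0 were called in the other comparisons. Among single genes at 5 days all 636 results under other settings and all 512 with 1 array left out stayed on their side of the threshold. For age in wild type 541 and 349 did, 79 and 69 passed where they had not, and 16 and 94 no longer passed.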
